A study of Mus musculus with 7 samples.

Results

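The 44 genes described here act in the G2 phase of the cell cycle and in mitosis. They were taken by gene symbol, for their known roles, from a table of 52224 gene rows. All 44 symbols had a row, and all 44 were among the 13865 genes that passed a filter on low values (an FPKM of 1 or more in 2 or more libraries). RNA was sequenced from haematopoietic stem cells of mouse bone marrow, the source of all blood cells, following 48 h of culture with a drug or its solvent. Gem libraries came from cells given gemcitabine at 0.5 µM (n = 2), a nucleoside drug that stops the growing DNA chain. HU libraries came from cells given hydroxyurea at 100 µM (n = 2), which inhibits ribonucleotide reductase and so the supply of deoxynucleotides. DMSO libraries came from cells given the solvent (n = 3). All 3 groups were wild-type C57BL/6J cells of bone marrow, sorted as lineage-negative, Sca-1+ and c-Kit+ (LSK) cells without CD48 and with CD150. The labels give no ages and do not say whether replicate libraries were made from different mice or cultures; the p-values thus rest on how far these libraries vary, and that variation may be technical.

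Entry into mitosis is driven by Cdk1 bound to a B-type cyclin. Polo and Aurora kinases then build the spindle, kinetochores join chromosomes to it, and the spindle checkpoint holds back the anaphase-promoting complex (APC/C) until every chromosome is attached. The APC/C then marks cyclin B and securin for destruction, so that sister chromatids part and the cell divides. Transcripts of these genes are low in resting cells and accumulate towards mitosis, and the set is widely used as a sign of cycling cells. Both drugs act on S phase, the step before G2. The comparisons ask whether transcripts of the genes that follow S phase differed in cells given either drug.

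The drug libraries stood below the DMSO libraries over much of the table. Levels are given as deposited, in FPKM (fragments per kilobase of transcript scaled to the mapped fragments of the library), and FPKM summed over all genes to 703016 to 729258 in Gem, 647760 to 651315 in HU and 818775 to 832979 in DMSO. The log2 fold change against DMSO had a median over all genes tested of -0.25 for Gem and -0.30 for HU. Trimmed-mean scaling, which evens out such a shift, left medians of 0.013 and 0.019. As deposited 3213 genes were called lower and 208 higher in Gem, and 4922 and 619 in HU; once scaled the calls were 64 and 67 in Gem, and 724 and 655 in HU. Changes are therefore given as deposited, with values after scaling beside them for the members the results turn on. Markers of the sorted cell were low or mixed. Slamf1, which encodes CD150, stood at 0.61 to 1.05 FPKM in Gem, 0.69 to 0.90 in HU and 0.41 to 1.25 in DMSO. Kit stood at 28.98 to 35.69 FPKM in Gem, 30.42 to 34.78 in HU and 40.20 to 48.22 in DMSO. Ly6a, which encodes Sca-1, stood at 21.22 to 26.15 FPKM in Gem, 14.74 to 18.26 in HU and 34.33 to 48.31 in DMSO. All 14 granulocyte and monocyte markers were above 0 in every library, with summed levels of 50312 to 52484 FPKM in Gem, 46855 to 50372 in HU and 42638.5 to 47842.5 in DMSO. Lyz2 made up most of that sum, with means of 34951 FPKM in Gem, 34446 in HU and 25887 in DMSO; of the other 13 markers, Mpo and Ltf had higher means in both drugs than in DMSO and 11 had lower means. Summed stem cell markers (12 genes, 11 above 0 in every library) stood at 126 to 134 FPKM in Gem, 116 to 128 in HU and 179 to 190 in DMSO. Fgd5 and Mecom went against that sum, at low levels. Fgd5 had means of 0.19 FPKM in Gem, 0.465 in HU and 0.023 in DMSO, and Mecom of 0.34, 1.075 and 0.32. Every other marker of that list had a lower mean in both drugs than in DMSO. Megakaryocyte markers (8 of 8 above 0 in every library) summed to 1750 to 1845 in Gem, 1401 to 1595 in HU and 1797 to 2899 in DMSO, and erythroid markers (9 of 10) to 57.4 to 64.4 in Gem, 64.1 to 65.2 in HU and 103 to 138 in DMSO. Among the erythroid markers Alas2 alone had higher means in both drugs than in DMSO. Mast cell and basophil markers (5 of 8) summed to 220.1 to 403 FPKM in Gem, 199 to 204 in HU and 281 to 1356 in DMSO, with Cma1, Tpsb2 and Mcpt4 at or near 0. The sums of lymphoid (8 of 12) and of stromal and endothelial (5 of 8) markers overlapped between all groups, at 15.6 and 158 FPKM at most. Single markers of these lists did not all overlap. Pecam1 stood at 20.9 to 27.5 FPKM in the drug libraries and 30.5 to 36.1 in DMSO, and Cd3g at 0.51 to 0.76 and 0 to 0.28. The part of these cell types in the results was not tested, and in bulk RNA fewer dividing cells and less of these transcripts per cell cannot be told apart.

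Promoters of such genes are known to share a cell cycle element, the CHR, which the DREAM complex binds in resting cells to keep the gene off and the B-Myb and FoxM1 complex binds towards mitosis to turn it on. They often pair it with CCAAT boxes, bound by the activator NF-Y. RefSeq promoter windows (build GRCm38.p6, 250 bases before to 50 after each annotated start) matched 37 of the 44 genes; Ccna2, Cdc25c, Aurkb, Incenp, Kif20a, Tpx2 and Foxm1 were not matched. A CHR was counted as the letters TTTGAA or TTCGAA and an NF-Y box as CCAAT, on either strand, and 1 CHR among these windows shared a base with an NF-Y box, in Cdca8; in Ube2c a pair of NF-Y boxes on opposite strands also overlap. Of the 37 windows 28 (75.7%) held a CHR, against 14.4% of the windows of 9446 other genes tested and 19.4% of all 27025 windows. In the last 100 bases 26 (70.3%) held one, against 3.41% of the other genes tested and 5.29% of all. An NF-Y box lay in 30 (81.1%), against 39.4% of the other genes tested and 37.9% of all, and both elements lay in 25 (67.6%), against 6.16% and 7.7%. In 25 of the 37 windows a CHR began between 30 bases before and 45 after the annotated start. Windows of other genes were not counted over that range. The windows of 4 genes follow, 5′ to 3′ on the gene's strand, in lower case with matches to either element in capitals. Cks1b (chr3:89418242-89418541, minus strand) changed most of all members and has both elements, and Birc5 (chr11:117848987-117849286, plus strand), which like Cks1b still passed in HU after scaling, has no match in its window. Ccnb2 (chr9:70421505-70421804, minus strand) shows the usual layout, and Cdc25b (chr2:131186698-131186997, plus strand) is the member that stood highest in Gem relative to DMSO.
Cks1b: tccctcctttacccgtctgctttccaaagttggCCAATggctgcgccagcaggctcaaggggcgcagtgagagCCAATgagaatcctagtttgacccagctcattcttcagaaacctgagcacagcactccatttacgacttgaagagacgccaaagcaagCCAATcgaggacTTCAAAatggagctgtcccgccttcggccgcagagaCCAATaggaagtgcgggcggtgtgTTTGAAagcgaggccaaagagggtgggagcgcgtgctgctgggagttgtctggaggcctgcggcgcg
Birc5: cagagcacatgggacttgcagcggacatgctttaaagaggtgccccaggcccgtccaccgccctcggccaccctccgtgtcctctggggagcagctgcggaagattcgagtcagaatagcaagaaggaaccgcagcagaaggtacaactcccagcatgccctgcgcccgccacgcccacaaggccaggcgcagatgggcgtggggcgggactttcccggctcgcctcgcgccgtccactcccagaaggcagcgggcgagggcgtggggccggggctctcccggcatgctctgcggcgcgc
Ccnb2: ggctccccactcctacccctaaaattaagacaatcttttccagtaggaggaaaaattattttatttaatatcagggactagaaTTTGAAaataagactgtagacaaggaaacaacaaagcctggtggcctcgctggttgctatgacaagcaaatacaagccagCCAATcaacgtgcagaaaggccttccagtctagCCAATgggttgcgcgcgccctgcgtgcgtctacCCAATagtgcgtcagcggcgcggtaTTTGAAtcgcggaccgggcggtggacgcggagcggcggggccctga
Cdc25b: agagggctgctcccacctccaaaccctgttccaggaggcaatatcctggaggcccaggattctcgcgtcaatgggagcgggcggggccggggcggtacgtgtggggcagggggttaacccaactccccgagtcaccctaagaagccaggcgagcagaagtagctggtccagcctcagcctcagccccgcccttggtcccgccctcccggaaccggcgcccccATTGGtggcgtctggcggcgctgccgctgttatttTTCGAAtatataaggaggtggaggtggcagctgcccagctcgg
In Cks1b, 4 NF-Y boxes lead up to a CHR near the start, and a further CHR on the other strand lies upstream; Ccnb2 has 3 boxes and a CHR just past the start. A match is a description of the letters, not a site shown to be bound, and a window without one says only that these letters are not in it.

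**Figure D1:**
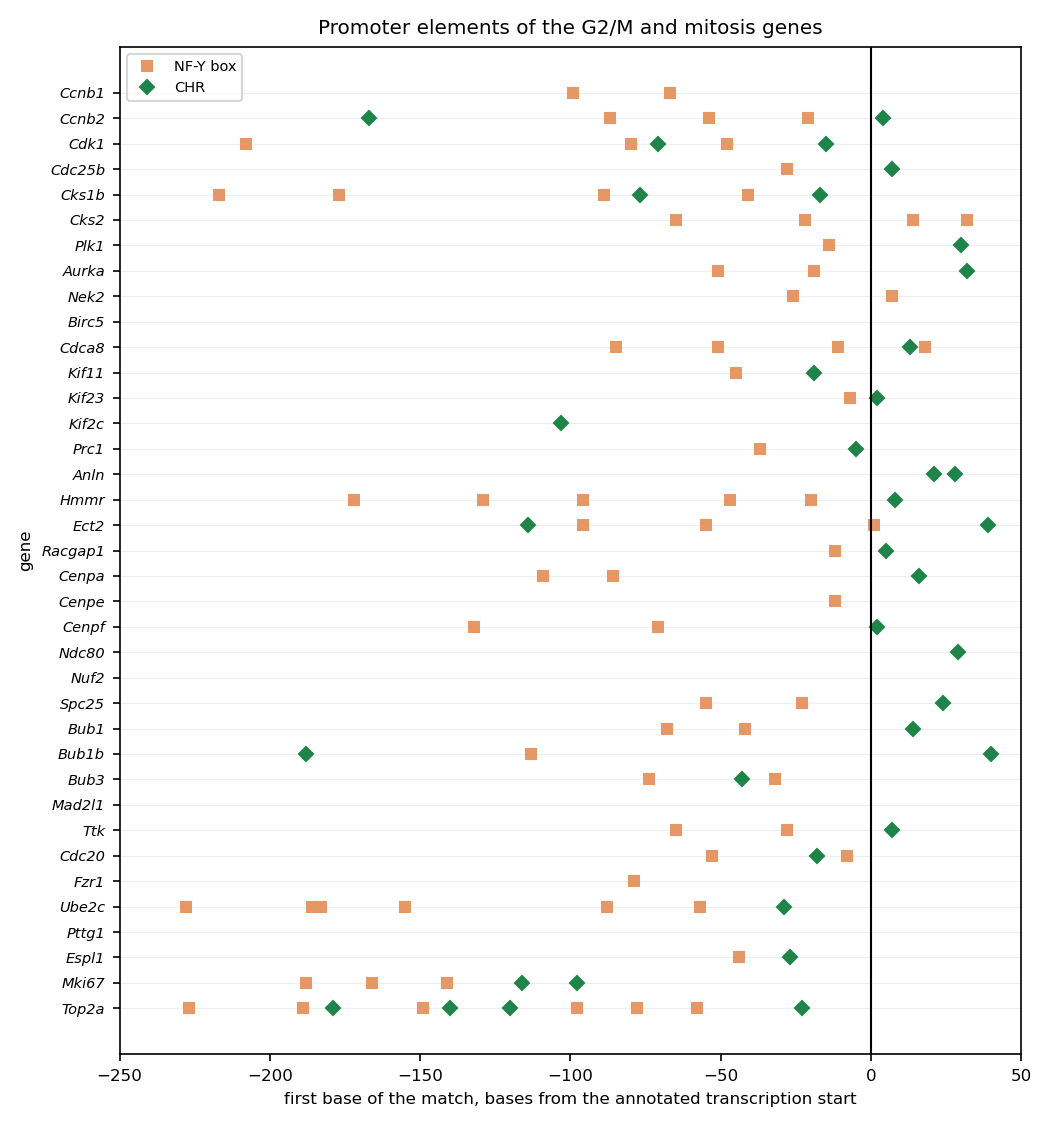
Promoter windows of the 37 matched genes, 1 row each; the x axis gives the first base of each match in bases from the annotated start, diamonds stand for the CHR and squares for the NF-Y box. Diamonds of 25 genes fall between 30 bases before and 45 after the start, with squares mostly before them.

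In Gem against DMSO, 18 of the 44 genes fell as deposited (limma, Benjamini-Hochberg adjusted p below 0.05 over all genes tested), against 23.2% of all genes tested. None rose, also at an unadjusted p under 0.05. The genes that fell were led by Cks1b, Ube2c, Birc5, Pttg1 and Cks2, which serve the cyclin-Cdk1 complex, the APC/C, the passenger complex and sister chromatid separation. The median log2 fold change of the 44 genes was -0.34, against -0.25 for all genes, and 42 were negative. In 35 of the 44 both Gem libraries lay below all 3 DMSO libraries, as they did for 50.4% of all genes tested. After scaling 0 members passed, against 0.462% of all genes called lower, and the median was -0.045. An unadjusted limma p under 0.05 was then reached by 7 members, among them Cdc25b, which was higher in Gem (0.41). Both Gem libraries then lay below all DMSO libraries for 11 members, against 17.2% of all genes. All 18 genes called as deposited kept a negative sign. Gem 2 stood below Gem 1, with a member median of -0.46 against -0.26 in Gem 1 relative to the DMSO mean. With Gem 2 left out, which leaves 1 Gem library, the member median was -0.26, against -0.23 for all genes tested. Leaving out DMSO 1 or DMSO 2 gave 7 or 8 members called lower by limma, against 10.4% or 15% of all genes.

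In HU against DMSO, which shares the DMSO libraries with the Gem comparison, 29 of the 44 genes fell as deposited by limma, against 35.5% of all genes tested. None rose, also at an unadjusted p under 0.05. Every Polo, Aurora and passenger complex member fell, as did 7 of 10 spindle and cytokinesis genes. The median was -0.41 against -0.30 for all genes, and 43 were negative. In 38 of the 44 both HU libraries lay below all DMSO libraries, against 53.9% of all genes. After scaling 2 members, Cks1b and Birc5, were called lower, against 5.22% of all genes, and the median was -0.063. Both HU libraries then lay below all DMSO libraries for 12 members, against 19.7% of all genes. Of the 29 genes 24 kept a negative sign after scaling, while Ccna2, Incenp, Kif20a, Racgap1 and Fzr1 turned to between 0.0036 and 0.085. With HU 1 left out, which leaves 1 HU library, the member median as deposited was -0.33, against -0.30 for all genes. With HU 2 left out it was -0.43, against -0.33. Leaving out DMSO 1 gave 15 members called lower by limma, against 26.1% of all genes.

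The share of genes called lower climbed with their level, and these members are well expressed. In Gem 7 of the 14 members with a mean of 20 to 50 FPKM were called lower, against 46.2% of all 2313 genes at that level, and 6 of 8 with 50 to 100 FPKM, against 65.3%. In HU the matching counts were 12 of 14 against 68.4% and 6 of 8 against 83.8%. Among members with 10 to 20 FPKM the counts were 3 of 11 in Gem against 25.3% and 7 of 11 in HU against 44.1%, With 5 to 10 FPKM they were 0 of 7 in Gem against 10.9% and 2 of 7 in HU against 22.6%, and below 5 FPKM 0 of 2 in each against 2.07% in Gem and 5.38% in HU. In Gem most of the members' counts therefore lay near those of other genes of their level. In HU they lay above them at 10 to 20 and 20 to 50 FPKM, and below them at 50 to 100 FPKM. Cks1b and Cks2, the 2 members at 100 FPKM or more, had a median log2 fold change of -0.76 in Gem, against -0.41 for all 918 genes at that level, and in HU likewise lay below the median of -0.58. Across the 44 genes the log2 fold change as deposited had a Spearman correlation with mean level of -0.56 in Gem and -0.60 in HU, and of -0.45 and -0.53 across all genes. With exonic length it was 0.50 in Gem and 0.33 in HU, against 0.074 and 0.085 across the 13440 genes with a length, so that shorter members had the more negative changes. Genes are not independent replicates, and the members share libraries. With the trend on length removed, limma called 0 members lower in Gem (0.848% of all genes) and 6 in HU (7.28% of all genes), namely Birc5, Cdk1, Ndc80, Cks1b, Mad2l1 and Cks2. In Gem 9 members then had an unadjusted p under 0.05, among them Cdc25b, which was higher (0.40).

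**Figure D2:**
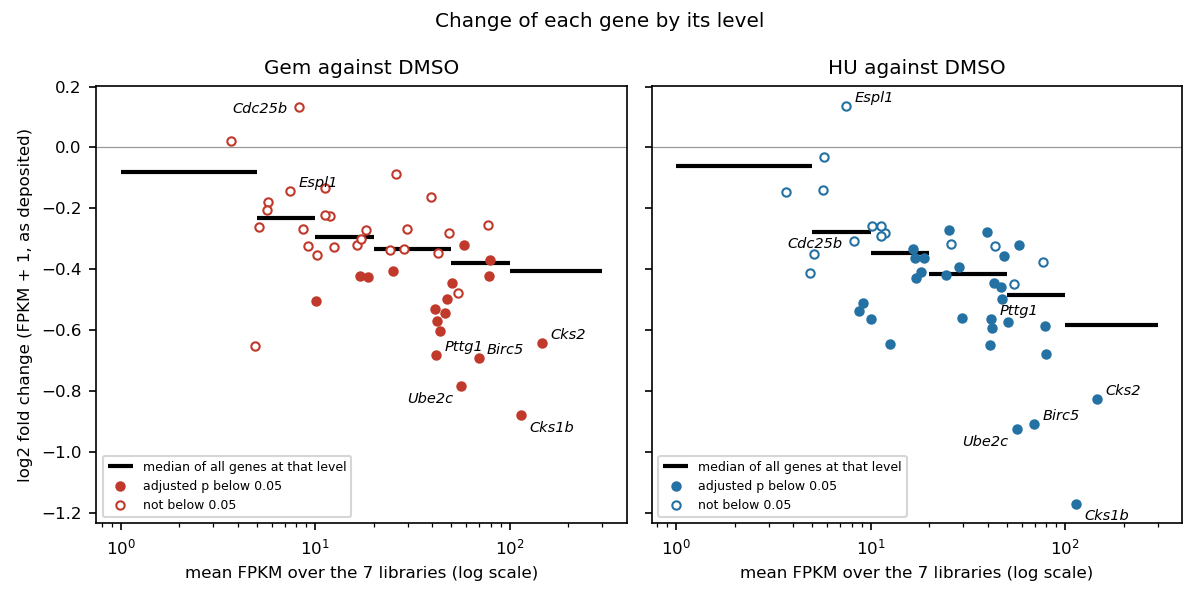
Log2 fold change of each of the 44 genes as deposited (y axis) by its mean FPKM over the 7 libraries (x axis, log scale), Gem against DMSO on the left and HU against DMSO on the right; black bars give the median of all genes at that level and filled points an adjusted p below 0.05. The points follow the bars downwards with level, and Cks1b lies well below them, at -0.88 in Gem and -1.17 in HU.

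Among the cyclins, Cdk1 and its activators, 5 of 8 genes fell in Gem (62.5%, against 23.2% of all genes tested) and 6 of 8 in HU (75%, against 35.5%), with a median of -0.51 in Gem and -0.58 in HU (scaled, -0.21 and -0.22). Cks1b and Cks2 encode the small Cks proteins that bind Cdk1 and help it to act on substrates already phosphorylated; Cks1b also helps to target the inhibitor p27 for destruction. Cks1b was at 96.66 and 77.40 FPKM in Gem 1 and 2, at 69.33 and 71.72 in HU 1 and 2, and at 176.42, 175.08 and 132.23 in DMSO 1, 2 and 3. Neither drug group overlapped DMSO, although DMSO 3 lay well below the other two. Its log2 fold change was -0.88 ± 0.15 in Gem (SE; limma adjusted p = 0.00932) and -1.17 ± 0.15 in HU (adjusted p = 0.00171), and -0.58 (adjusted p = 0.0934) and -0.80 (adjusted p = 0.0150) after scaling. Cks1b lies on chromosome 3 (89415472 to 89418383, minus strand, GRCm38), with 4 exon blocks in GENCODE. Cks2 was at 130.32 and 109.82 FPKM in Gem, 105.56 and 104.74 in HU, and 213.30, 213.07 and 144.71 in DMSO. The groups did not overlap as deposited, but after scaling Gem 1, at 138 FPKM, passed DMSO 3, at 129. Cks2 fell by 0.64 in Gem (log2, limma adjusted p = 0.0344) and by 0.83 in HU (adjusted p = 0.00902); its Gem call was lost without any one of DMSO 1, DMSO 2, Gem 1, Gem 2 and HU 2 (adjusted p from 0.0503 to 0.200). Without DMSO 3, an alternative added after seeing the data, Cks1b and Cks2 passed after scaling in Gem (adjusted p = 0.0263 and 0.0355), and in HU Cks1b, Cks2, Birc5 and Ube2c did.

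Cdk1, the mitotic kinase itself, was at 82.35 and 66.75 FPKM in Gem, 56.59 and 63.03 in HU, and 97.19, 93.03 and 98.38 in DMSO. HU lay lowest with no overlap, and the DMSO libraries were close together. Cdk1 fell by 0.37 in Gem (log2; limma adjusted p = 0.0367) and by 0.68 in HU (adjusted p = 0.00289), and its values after scaling were -0.069 and -0.31 (adjusted p = 0.759 and 0.0745). The B-type cyclins, its partners in mitosis, fell in both drugs. Ccnb1 averaged 44.8 ± 5.92 FPKM in Gem, 40.8 ± 4.37 in HU (SD, n = 2 each) and 61.1 ± 4.28 in DMSO (n = 3), and fell by 0.44 in Gem and by 0.57 in HU (log2; limma adjusted p = 0.0295 and 0.00740). Ccnb2 averaged 34.7 ± 1.76 FPKM in Gem, 34.2 ± 2.64 in HU and 52.3 ± 6.98 in DMSO, and fell by 0.57 and 0.59 (log2; limma adjusted p = 0.0168 and 0.00817). After scaling both cyclins lay between -0.14 and -0.27 in either drug and did not pass. Ccna2, cyclin A2, which acts from S phase on, fell in HU as deposited (-0.36, limma adjusted p = 0.0293), with -0.28 in Gem (0.0863), and after scaling stood at 0.020 in Gem and 0.0036 in HU.

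The Cdc25 phosphatases, which strip the inhibitory phosphates from Cdk1, did not pass in either drug. Cdc25b was at 8.45 and 10.38 FPKM in Gem, 6.33 and 6.96 in HU, and 8.41, 10.22 and 7.02 in DMSO. Both Gem libraries lay above both HU libraries and within or just above the DMSO range. Its log2 fold change was 0.13 in Gem (limma adjusted p = 0.588) and -0.31 in HU (0.178). After scaling it was 0.41 in Gem (unadjusted p = 0.0400, adjusted p = 0.270), with both Gem libraries above all DMSO libraries, and 0.017 in HU. Cdc25c was at 4.49 and 2.70 FPKM in Gem, 3.71 and 5.03 in HU, and 6.37, 5.64 and 6.28 in DMSO. Exons of Ccna2, Cdc25b and Cdc25c overlap genes on the opposite strand (Exosc9, Spef1 and Gm3550), as do those of Plk1, Nek2, Cdca8, Kif20a, Prc1, Cdc20, Fzr1 and Ube2c with other genes. The sources used here do not say that reads carry strand, so these values may hold reads of both genes.

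**Figure D3:**
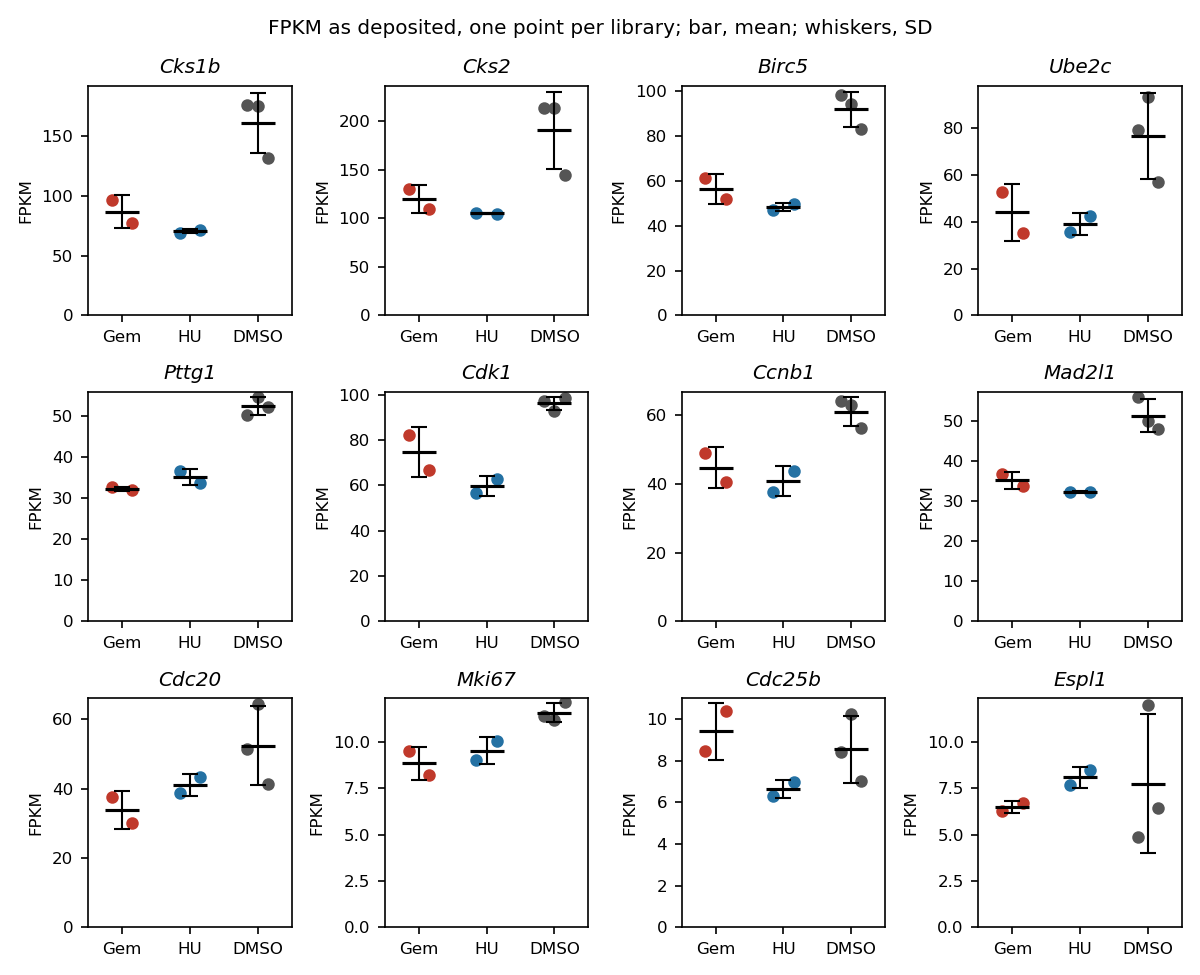
FPKM as deposited of 12 members in Gem (red), HU (blue) and DMSO (grey) libraries, 1 point per library with the mean as a bar and the SD as whiskers, every y axis from 0. Cks1b, Cks2, Birc5, Ube2c, Pttg1, Cdk1, Ccnb1, Mad2l1 and Mki67 show no overlap of the drug libraries with DMSO, whereas Cdc25b and Espl1 overlap in Gem.

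The Polo, Aurora and Nek kinases and the chromosomal passenger complex had 5 of 7 members lower in Gem (71.4%, against 23.2% of all genes) and 7 of 7 in HU (against 35.5%), with a median of -0.50 in Gem and -0.46 in HU (scaled, -0.20 and -0.096). Birc5 encodes survivin, the passenger subunit that brings Aurora B to centromeres and the midbody. It was at 61.29 and 51.75 FPKM in Gem, 47.21 and 49.49 in HU, and 98.08, 94.39 and 83.08 in DMSO. Both drug groups lay clear of DMSO, as deposited and after scaling. Birc5 fell by 0.69 ± 0.10 in Gem (log2, SE; limma adjusted p = 0.00777) and by 0.91 ± 0.10 in HU (adjusted p = 0.00135). After scaling it stood at -0.39 in Gem (adjusted p = 0.0910) and fell by 0.55 in HU (adjusted p = 0.0145). The scaled HU calls of Birc5 and Cks1b were kept without DMSO 2, DMSO 3, Gem 1 or Gem 2. They were lost without DMSO 1 (adjusted p = 0.0593 for both), HU 1 (0.0817 for Birc5 and 0.0805 for Cks1b) and HU 2 (0.0794 and 0.0843).

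The other passenger subunits changed less than Birc5. Aurkb, the kinase of the complex, averaged 38.3 ± 2.96 FPKM in Gem, 40.8 ± 2.33 in HU and 56.4 ± 4.41 in DMSO, and fell by 0.54 in Gem and 0.46 in HU (log2; limma adjusted p = 0.00996 and 0.00855). Cdca8, which encodes borealin, fell by 0.50 in each (adjusted p = 0.0151 and 0.00815). Incenp, the scaffold of the complex, fell by 0.32 in each (adjusted p = 0.0270 and 0.0172) but stood at -0.021 in Gem and 0.043 in HU after scaling. The 4 passenger members thus differed among themselves, with scaled log2 fold changes in HU of -0.55 for Birc5, -0.14 for Cdca8, -0.096 for Aurkb and 0.043 for Incenp. Plk1, the Polo kinase that helps to switch on Cdk1 and to mature centrosomes, was at 27.26 and 24.53 FPKM in Gem, 24.25 and 25.26 in HU, and 34.28, 35.36 and 29.21 in DMSO. Both drug groups lay below DMSO and overlapped each other; Plk1 passed in HU (-0.39, limma adjusted p = 0.0215) and not in Gem (-0.33, 0.0547), with -0.038 in each after scaling. Aurka, which works at spindle poles, was close to it, at -0.34 in Gem (0.0506) and -0.42 in HU (0.0163), and at -0.043 and -0.065 after scaling. Nek2, a centrosome kinase, fell in both as deposited (-0.50 in Gem and -0.56 in HU; limma adjusted p = 0.0355 and 0.0155) and stood at -0.23 in each after scaling.

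Spindle and cytokinesis genes lay close to the shift of the whole table. Of the 10 genes 1 fell in Gem, Kif11 (10%, against 23.2% of all genes), and 7 in HU (70%, against 35.5%), with a median of -0.27 in Gem and -0.35 in HU (scaled, 0.023 and -0.0002). Kif11 encodes the motor Eg5, which pushes spindle poles apart. It averaged 16.1 ± 1.87 FPKM in Gem, 16.8 ± 1.15 in HU and 21.9 ± 0.771 in DMSO, and fell by 0.43 in Gem and 0.36 in HU (log2; limma adjusted p = 0.0236 and 0.0258), against -0.14 and -0.014 after scaling. Prc1, which bundles microtubules of the central spindle, was at 30.94 and 26.09 FPKM in Gem, 24.46 and 21.67 in HU, and 39.88, 32.87 and 31.19 in DMSO. Gem 1 lay just under DMSO 3, and HU lay clear of it. Prc1 fell by 0.56 in HU (limma adjusted p = 0.0133) and stood at -0.27 in Gem (0.168), and at -0.21 and 0.027 after scaling. The other genes that fell in HU as deposited were Hmmr and Tpx2, which help to organise the spindle, Kif20a, a motor of cytokinesis, Anln, which encodes the contractile ring protein anillin, and Racgap1, part of centralspindlin. Their log2 fold changes ran from -0.54 for Hmmr to -0.28 for Racgap1. Kif23, the motor of centralspindlin, Kif2c, which depolymerises microtubules, and Ect2, the exchange factor that sets the cleavage furrow, passed in neither drug. The values of Kif23 in Gem, 28.36 and 24.58 FPKM, overlapped those in DMSO of 26.45, 31.61 and 26.52.

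Kinetochore and spindle checkpoint genes had 3 of 11 members lower in Gem (27.3%, near the 23.2% of all genes) and 6 in HU (54.5%, against 35.5%), with a median of -0.33 in Gem and -0.43 in HU (scaled, -0.043 and -0.082). Mad2l1 encodes Mad2, the checkpoint protein that holds Cdc20 inactive. It was at 36.76 and 33.73 FPKM in Gem, 32.43 and 32.26 in HU, and 56.13, 49.96 and 48.18 in DMSO. The drug libraries did not overlap the DMSO libraries, as deposited or after scaling. Once scaled, the gap was narrower, with Gem 1 at 39.0 FPKM and DMSO 3 at 43.0. Mad2l1 fell by 0.53 ± 0.09 in Gem (log2, SE; limma adjusted p = 0.00944) and by 0.65 ± 0.09 in HU (adjusted p = 0.00212), against -0.23 and -0.29 after scaling (adjusted p = 0.210 and 0.0645). Bub3 and Bub1b, which join Mad2 in the mitotic checkpoint complex, also fell in both. Bub3 was the more abundant per length, with 70.4 ± 8.87 FPKM in Gem, 62.6 ± 3.88 in HU and 94.4 ± 6.31 in DMSO (log2 fold changes -0.42 and -0.58; limma adjusted p = 0.0245 and 0.00473; scaled, -0.12 and -0.22). Bub1b averaged 14.6 ± 1.70, 15.2 ± 0.276 and 19.8 ± 1.49 FPKM in Gem, HU and DMSO (-0.42 and -0.36; limma adjusted p = 0.0286 and 0.0310; scaled, -0.13 and -0.016).

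The Ndc80 complex, which grips microtubules at the outer kinetochore, was lower in HU for the 3 subunits among the members. Ndc80 was at 11.70 and 12.06 FPKM in Gem, 9.91 and 8.79 in HU, and 15.95, 15.67 and 13.95 in DMSO. The 3 groups did not overlap, with HU lowest. It fell by 0.65 in HU (limma adjusted p = 0.00380) and stood at -0.33 in Gem (0.0589), and at -0.31 and -0.043 after scaling. Nuf2 and Spc25 fell by 0.43 and 0.45 in HU (limma adjusted p = 0.0255 and 0.0143), and stood at -0.30 and -0.35 in Gem (0.104 and 0.0507); after scaling both lay between -0.012 and -0.085 in either drug. The checkpoint kinases Bub1 and Ttk, the centromeric histone gene Cenpa, and Cenpe and Cenpf, large proteins of the outer kinetochore, passed in neither drug. Cenpa was at 50.06 and 41.69 FPKM in Gem, 42.83 and 50.95 in HU, and 69.49, 75.96 and 49.79 in DMSO, so that DMSO 3 lay among the drug libraries. Cenpf stood at -0.18 in Gem and -0.032 in HU, and after scaling both HU libraries lay above all DMSO libraries (0.28, limma adjusted p = 0.320).

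The APC/C and chromatid separation genes had 4 of 5 members lower in Gem (80%, against 23.2% of all genes) and 3 in HU (60%, against 35.5%), with a median of -0.60 in Gem and -0.33 in HU (scaled, -0.30 and 0.036). Pttg1 encodes securin, which holds separase inactive until anaphase. It was at 32.73 and 31.97 FPKM in Gem, 36.59 and 33.80 in HU, and 50.42, 54.82 and 52.21 in DMSO. The groups lay apart on both scales, but after scaling HU 1, at 41.9 FPKM, came close to DMSO 1, at 43.6. Pttg1 fell by 0.68 ± 0.08 in Gem (log2, SE; limma adjusted p = 0.00574) and by 0.56 ± 0.08 in HU (adjusted p = 0.00208), and stood at -0.38 and -0.20 after scaling (adjusted p = 0.0804 and 0.158). With every library rescaled to the same sum its Gem value was -0.48 (adjusted p = 0.0298). Without Gem 2 the Gem calls of Pttg1, Birc5 and Cks1b were lost (adjusted p = 0.0563, 0.0687 and 0.0807), while the HU calls of these 3 genes and of Cks2 as deposited were kept without any 1 library.

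Ube2c encodes the E2 enzyme that starts ubiquitin chains for the APC/C, and Cdc20 and Fzr1 encode its activators in early and late mitosis. Ube2c was at 52.57 and 35.28 FPKM in Gem, 35.70 and 42.48 in HU, and 79.27, 93.13 and 56.78 in DMSO. Its spread was wide, and Gem 1 lay close to DMSO 3. Ube2c fell by 0.78 ± 0.23 in Gem and by 0.93 ± 0.23 in HU (log2, SE; limma adjusted p = 0.0463 and 0.0176), and stood at -0.48 and -0.56 after scaling (0.314 and 0.153). Cdc20 was at 37.61 and 30 FPKM in Gem, 38.72 and 43.32 in HU, and 51.43, 64.29 and 41.44 in DMSO. HU 2 passed DMSO 3, and Cdc20 was the 1 member called in Gem (-0.60, limma adjusted p = 0.0480) and not in HU (-0.33, 0.192), with -0.30 and 0.036 after scaling. Fzr1, which encodes Cdh1, fell as deposited by 0.41 in Gem (limma adjusted p = 0.0143) and by 0.27 in HU (0.0332); after scaling it stood at -0.11 in Gem and 0.085 in HU, where both libraries lay just above all DMSO libraries. Espl1, the gene of separase, was at 6.25 and 6.70 FPKM in Gem, 7.67 and 8.48 in HU, and 4.84, 11.95 and 6.42 in DMSO. The DMSO libraries of Espl1 spanned the values of both drugs, and it passed in neither.

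Mki67, Top2a and Foxm1, the nuclear genes most used to mark proliferation, passed in neither drug, with a median of -0.26 in each (scaled, 0.046 and 0.079). Mki67 encodes Ki-67, which coats mitotic chromosomes. It was at 9.48 and 8.22 FPKM in Gem, 9.02 and 10.03 in HU, and 11.38, 11.19 and 12.15 in DMSO. The drug libraries did not overlap DMSO as deposited, but the log2 values were -0.35 in Gem (limma adjusted p = 0.0536) and -0.26 in HU (0.103), and -0.076 and 0.079 after scaling. Top2a, the topoisomerase that untangles sister chromatids, averaged 72.7 ± 11.1 FPKM in Gem, 66.8 ± 9.59 in HU and 86.8 ± 7.96 in DMSO (-0.26 and -0.38, limma adjusted p = 0.194 and 0.0572; scaled, 0.046 and -0.012). Foxm1, the transcription factor that activates many of the other members, was at 3.90 and 3.79 FPKM in Gem, 3.46 and 3.18 in HU, and 4.58, 3.17 and 3.69 in DMSO. Its groups overlapped, and its log2 fold changes were 0.020 in Gem and -0.15 in HU, and 0.26 and 0.14 after scaling. Exons of Foxm1 and Top2a overlap other genes on the same strand, so their values may hold reads of those.

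**Figure D4:**
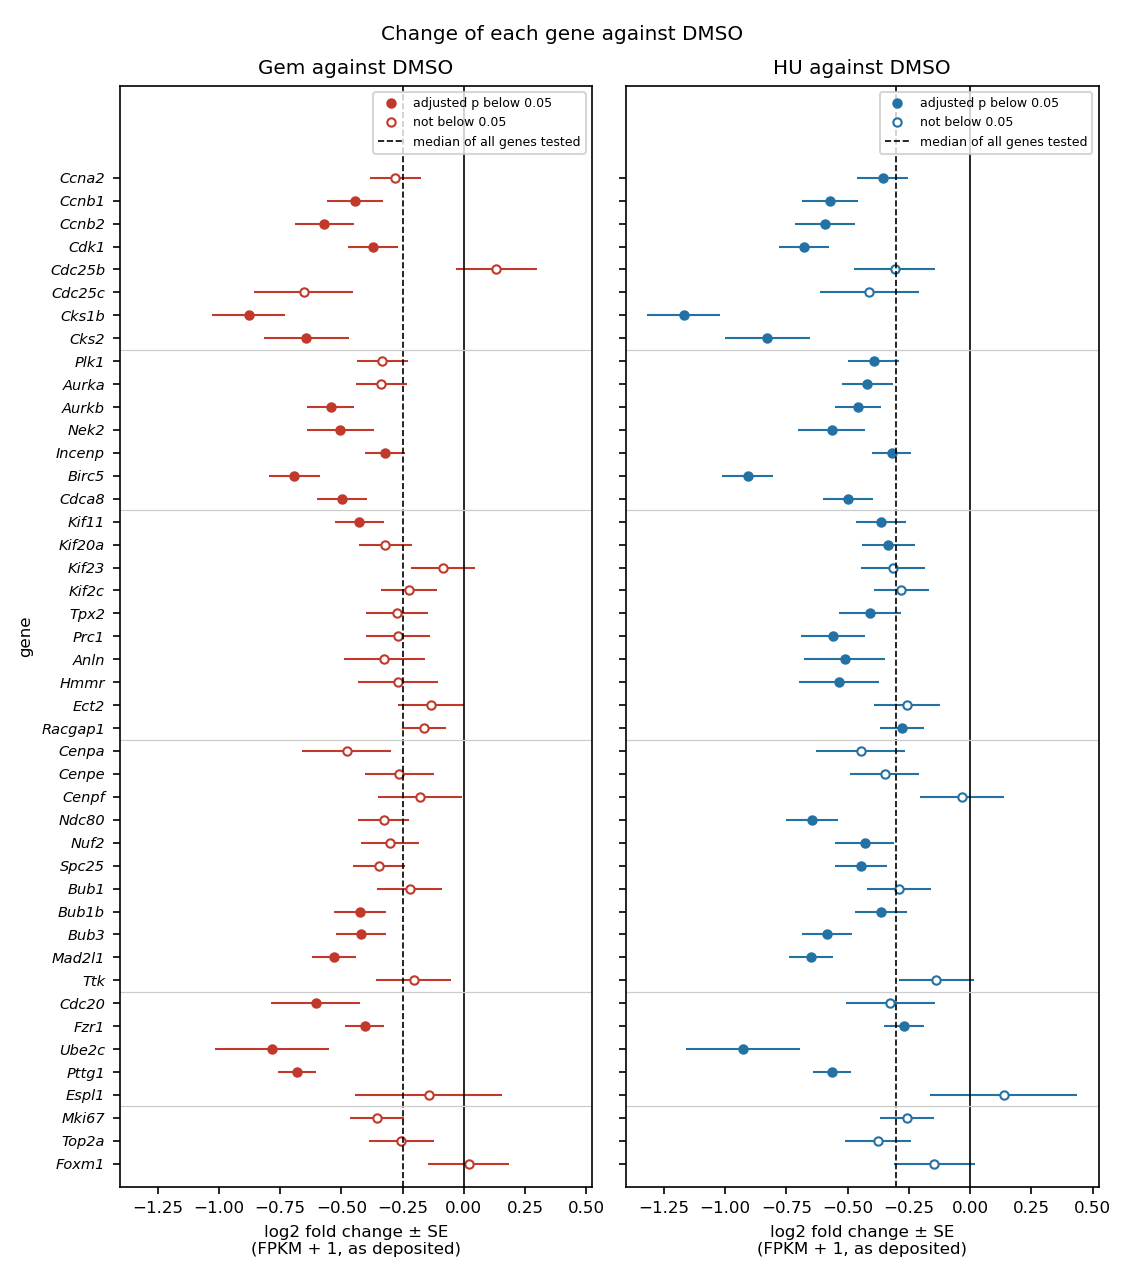
Log2 fold change with its SE for each of the 44 genes as deposited, in role order down the page, Gem against DMSO on the left and HU against DMSO on the right; filled points have an adjusted p below 0.05 and the dashed line is the median of all genes tested (-0.25 in Gem, -0.30 in HU). Spindle and proliferation genes lie around the dashed line, and Cks1b, Birc5, Ube2c and Pttg1 lie left of it.

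Between the drugs, Gem against HU gave 0 of 44 members called by limma in either direction, against 0.101% of all genes tested (14 genes), with 3 members at an unadjusted p under 0.05. This contrast is the difference between the responses to the drugs, since both are set against the same DMSO libraries. The 3 members were Cdk1 at 0.31 (95% interval 0.046 to 0.57), Ndc80 at 0.32 (0.047 to 0.59) and Cdc25b at 0.44 (0.015 to 0.87), all higher in Gem, with limma adjusted p = 0.395, 0.395 and 0.455. After scaling, Cdk1 stood at 0.25 (unadjusted p = 0.0412), Ndc80 at 0.26 (0.0539) and Cdc25b at 0.39 (0.0638), so that 1 member was left at an unadjusted p under 0.05. Cdc20, the member called in Gem and not in HU, had a difference of -0.28 as deposited (limma adjusted p = 0.660). The median over all 44 genes was 0.084, against 0.056 for all genes tested. For 12 members called in HU and not in Gem the difference itself did not pass, so they are not shown to differ between the drugs.

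**Figure D5:**
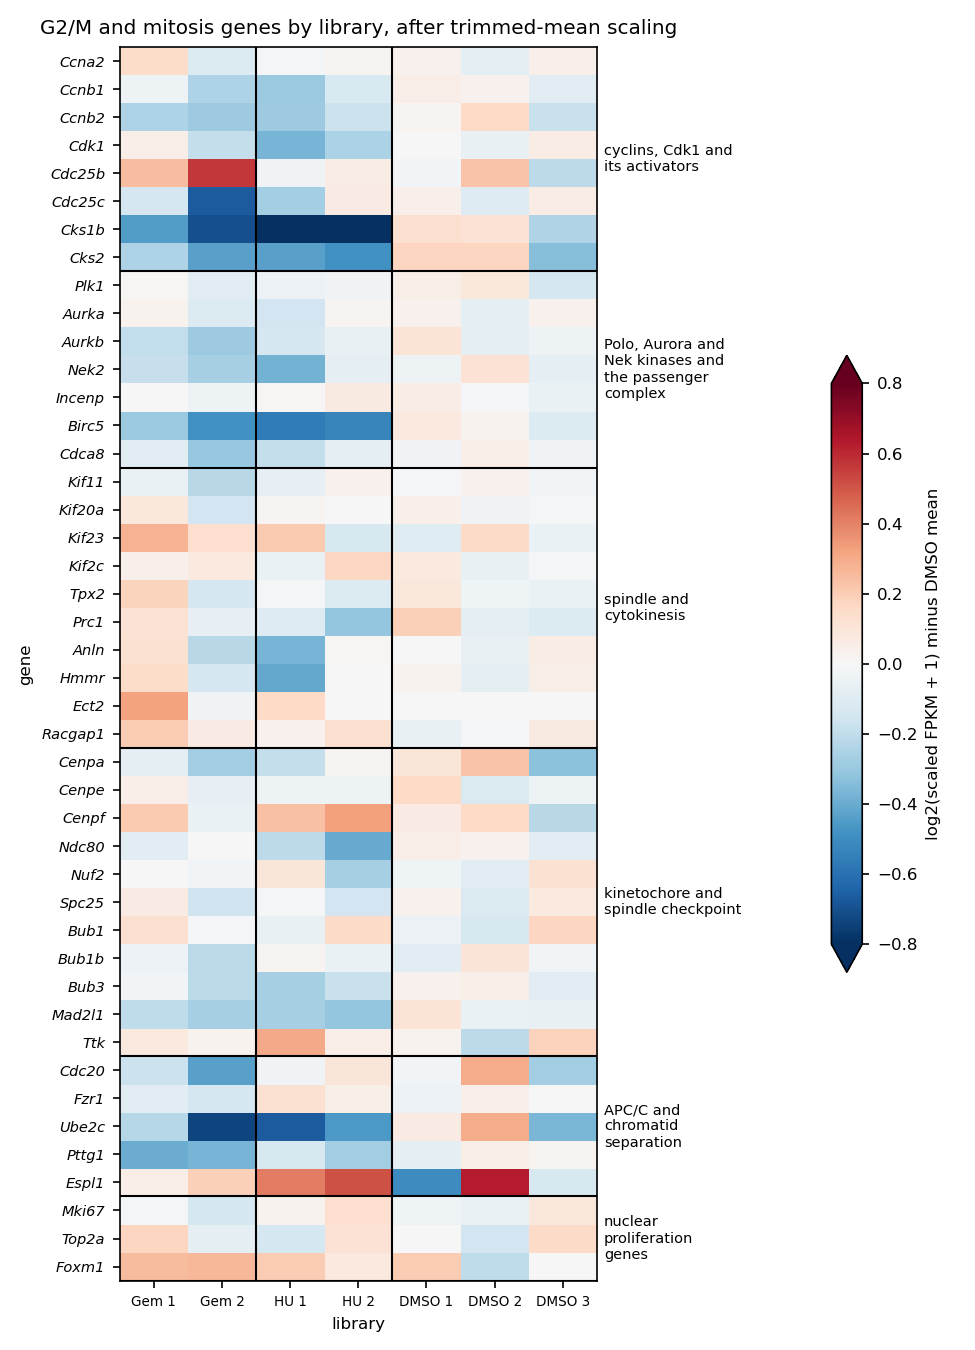
Scaled level of each gene in each library as log2(scaled FPKM + 1) minus the mean of the DMSO libraries (blue lower, red higher), with genes down the page by role and Gem, HU and DMSO libraries from left to right. After scaling most rows are pale, Cks1b and Birc5 are blue in all 4 drug libraries, and DMSO 3 is blue for Cks2, Ube2c, Cenpa and Cdc20.

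Lists of related genes outside the 44 were described in the same way. Their counts stand beside the 23.2% of all genes called lower in Gem and 35.5% in HU as deposited, and 0.462% and 5.22% after scaling. Of 44 S phase genes 21 (47.7%) fell in Gem and 32 (72.7%) in HU as deposited, and 2 (4.55%) in each after scaling, with medians of -0.42 and -0.49 as deposited and -0.13 in each after scaling. Rpa3, part of the RPA complex that coats single-stranded DNA, and Gmnn, the licensing inhibitor geminin that the APC/C degrades, were called on both scales in both drugs. Gmnn was at 40.41 and 38.95 FPKM in Gem, 40.22 and 39.84 in HU, and 72.60, 64.55 and 67.69 in DMSO, and stood at -0.47 in Gem and -0.39 in HU after scaling (limma adjusted p = 0.0420 and 0.0212). Of 38 other kinetochore and checkpoint genes 13 (34.2%) fell in Gem and 22 (57.9%) in HU, and after scaling 1 (2.63%) and 5 (13.2%) did while 1 rose in HU. Pmf1, a subunit of the Mis12 complex of the kinetochore, was at 52.65 and 54.83 FPKM in Gem, 46.53 and 46.64 in HU, and 98.46, 90.05 and 87.77 in DMSO. It fell on both scales, by 0.76 in Gem and 0.97 in HU as deposited and by 0.46 and 0.60 after scaling (limma adjusted p = 0.0426 and 0.00878 after scaling). Zwint, a kinetochore partner of Knl1, fell by 0.63 and 0.80, and after scaling passed in HU (-0.44, limma adjusted p = 0.0219; -0.33 in Gem).

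Of 16 other APC/C subunits and inhibitors 6 (37.5%) fell in Gem and 10 (62.5%) in HU, with 0 and 4 (25%) after scaling (4 at an unadjusted p under 0.05 in Gem). Ube2s, which extends the chains that Ube2c starts, was at 8.99 and 9.73 FPKM in Gem, 9.13 and 8.51 in HU, and 17.46, 20.42 and 16.79 in DMSO. Both drugs left it far below DMSO, at -0.89 in Gem and -0.97 in HU, and after scaling at -0.60 (limma adjusted p = 0.0685) and -0.62 (0.0200). Fbxo5, which encodes the APC/C inhibitor Emi1, fell by 0.66 and 0.86, and after scaling passed in HU (-0.51, limma adjusted p = 0.0169). Of 18 mitotic entry regulators tested, of 20 listed, 6 (33.3%) fell in Gem and 8 (44.4%) in HU, with 0 and 1 (5.56%) after scaling (2 at an unadjusted p under 0.05 in Gem). Arpp19, which blocks the phosphatase PP2A-B55 that undoes the work of Cdk1, fell by 0.63 in Gem and 0.96 in HU, and by 0.59 in HU after scaling (limma adjusted p = 0.0160); its relative Ensa and the Cdk1-inhibiting kinase Pkmyt1 fell as deposited only. Of 30 other spindle and cytokinesis genes 9 (30%) fell in Gem and 15 (50%) in HU, among them Haus1, Haus5, Kif22 and Stmn1, with 0 in either drug after scaling (2 and 6 at an unadjusted p under 0.05). Of 11 DREAM and B-Myb complex genes tested 2 (18.2%) fell in Gem, E2f4 and Tfdp1, and 5 (45.5%) in HU, among them Rbbp4 (-0.50, limma adjusted p = 0.0136). None passed in either after scaling (0 in each at an unadjusted p under 0.05). Members were also described by whether their promoter window held a CHR. Of 28 with a CHR 9 were called lower in Gem and 16 in HU, with medians of -0.33 and -0.39. Of 9 without one 7 and 8 were, with medians of -0.50 and -0.56. Among all genes tested 23.2% were called lower in Gem and 35.5% in HU. After scaling the medians were -0.043 in Gem and -0.027 in HU with a CHR, and -0.23 and -0.21 without one. The difference was not tested, and the sets were not matched for level, with which the share of genes called lower climbed. Cks1b and Ube2c, with the largest changes of all members as deposited in both drugs, have a CHR.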

How the data were processed

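Expression was measured by RNA-seq in 7 libraries of cultured mouse haematopoietic stem cells. Per the labels' protocols, RNA was extracted with a miRNeasy kit, amplified by the Geo-seq method for small inputs and made into libraries with a TruePrep kit. The authors deposited 1 table of FPKM for 52224 genes, written to 2 decimals, and every column matched a library. The submitters' processing notes name the build mm10 and the tools Cufflinks 2.1.1, DESeq2, HTSeq and Bowtie 0.12.9, with no roles; which of them made the FPKM values is not given in those sources. FPKM divides by transcript length and mapped fragments, so short genes are estimated poorly, and the values fall when other sequences take more fragments.

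Here limma 3.58.1 (R 4.3.3) was fitted to log2(FPKM + 1), in 1 model over the 3 groups without a block. It used a trend of variance on mean level and left 4 residual degrees of freedom; fold changes on this scale understate those of low genes. Tests were two-sided, adjusted by Benjamini-Hochberg over 13865 genes and called below 0.05. The fit was tested on simulated data. Trimmed-mean scaling removed 30% of ratios and 5% of levels at each end. The length trend was a loess (span 0.3) on genes outside the members; 96.9% of genes tested had an exonic length in GENCODE M21. Overlapping exons also came from GENCODE M21. Figures were drawn with matplotlib 3.10.9 in Python 3.11.15.

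The members and the lists were chosen with earlier results of these data known. Named members were Mki67, Top2a, Cdk1, Ccnb1, Cdc20 and Plk1, the 3 with the smallest p per role group and drug, the 3 with the smallest p between drugs, and members that moved against the rest after scaling at an unadjusted p below 0.05. From each of 6 other lists the 2 with the smallest p per drug were named; further members are named to account for all 44. Depth is unknown: when the value of 1 read was searched for, 25.4% to 36.0% of a library's low values came within 0.1 of whole reads, and 20% would do so by construction with an unfitted step, so no reads were recovered and no counting intervals are given.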

Additional observations from a re-analysis of the deposited data

How the results depend on the processing

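Members called as deposited numbered 18 in Gem and 29 in HU. The count in Gem was 6 without the filter on low values, 9 without the mean-variance trend, 3 with libraries rescaled to the same sum, and 0 after quantile normalization, trimmed-mean scaling or removal of the length trend. In that order, the shares of all genes called lower in Gem were 3.25%, 13.7%, 2.4%, 0.144%, 0.462% and 0.848%. In HU the count was 2 under the same sum, quantile normalization and trimmed-mean scaling, and 6 with the length trend removed. In that order, the shares of all genes called lower in HU were 5.99%, 1.8%, 5.22% and 7.28%. Leaving out 1 library gave 0 to 20 members in Gem and 11 to 29 in HU, and after scaling 0 to 2 and 0 to 4. Gem against HU gave 0 members under every setting run. The counts moved by less than 1.5 times with a pseudocount of 0.1 (18 in Gem, 29 in HU), a mean of at least 5 FPKM (24 and 30), library weights (26 and 30) and the compared groups alone (14 and 29). Shares of all genes called lower were 23.4% in Gem and 35.6% in HU with that pseudocount, and 28.6% and 36.3% with library weights. With a mean of at least 5 FPKM, where 42 members were tested, they were 44.5% and 58.7%. With the compared groups alone they were 20.2% and 31.7%.

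All genes called in Gem numbered 3421, against 1509 without the filter, 2132 without the trend, 432 under the same sum, 67 after quantile normalization, 131 after trimmed-mean scaling, 178 with the length trend removed, and 13 to 3381 without 1 library (7 to 292 after scaling). In HU they numbered 5541, against 1480 under the same sum, 560 after quantile normalization, 1379 after trimmed-mean scaling, 1506 with the length trend removed, and 3095 to 5204 without 1 library (112 to 1351 after scaling). Between the drugs the 14 genes became 1 with a pseudocount of 0.1, 2 without the filter or with a mean of at least 5 FPKM, 64 without the trend, 9 with the length trend removed, 1 with the compared groups alone, and 1 to 11 without 1 library (1 to 15 after scaling).

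Same-numbered libraries of different groups had deviations correlated by -0.0736 to 0.0549. With 2 libraries each in Gem and HU, the deviations within a drug group mirror each other. These values therefore do not settle whether the numbers pair the samples. A replicate block gave 17 members in Gem, against 19.8% of all genes called lower, and 20 in HU, against 31.6%. Between the drugs it gave 2 genes of all those tested. With scaling and the replicate block the members were 0 and 3, and all genes 59 in Gem, 840 in HU and 2 between the drugs. Number 3 occurs in DMSO alone, so the block sets DMSO 3 aside. Its fold changes against DMSO as deposited are those without DMSO 3, as for Cks1b (-1.01 in Gem and -1.31 in HU). Some called genes turned to positive log2 values. After quantile normalization these were Cdk1 (0.039), Ensa (0.020), Stmn1 (0.043) and Tfdp1 (0.066) in Gem, and Aurkb (0.016), Bub1b (0.0057), Ensa (0.038), Fzr1 (0.15), Kif11 (0.011), Kif20a (0.041), Plk1 (0.020) and Tfdp1 (0.062) in HU. In HU, Fzr1 also did under the same sum (0.060), trimmed-mean scaling (0.085) and removal of the length trend (0.018), and Kif20a (0.014), Ccna2 (0.0036), Incenp (0.043) and Racgap1 (0.082) under trimmed-mean scaling. The causes were not tested. Scaling with a library left out or with the block was chosen after seeing the data; leaving out DMSO 2, Gem 1, Gem 2, HU 1 and HU 2 with scaling gave 37, 8, 10, 94 and 89 genes in Gem, leaving out DMSO 1, DMSO 2, Gem 1, Gem 2 and HU 1 gave 276, 545, 1075, 1077 and 216 in HU, and between the drugs 8 were left without DMSO 1 and 3 without Gem 2 or HU 1. Read depth is unknown, so the precision of low members cannot be given.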
